A study of Mus musculus with 8 samples.

Results

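The 10 genes described here encode proteins of the actin, intermediate filament and microtubule systems, and were examined in regulatory T (Treg) cells with low and with high activity of the Bach2 locus. They are Myo1f, Vim, Lmna, Crip1, Ahnak and Capg, which were chosen as higher in the low group, and Cnn3, Actn1, Tubb2a and Tuba4a, which were chosen as lower. They are 10 of the 36811 gene models in the deposited table, and all 10 were found in it by their Ensembl identifiers. Myo1f stood furthest up in LO cells, with 19.9 times the mean HI level, and Cnn3 furthest down, with every HI library at least 23.4 times the highest LO library. Because the same FPKM values chose them, their LO minus HI differences are given as a description, with no test. Crip1 (a LIM domain protein) and Ahnak (a giant scaffold protein) are not filament proteins themselves.

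The cells came from spleens of C57BL/6 mice aged 12 to 13 weeks with the genotype Foxp3EGFP-DTR Bach2tdRFP/+, that is, a Foxp3 reporter that marks Treg cells and also carries the diphtheria toxin receptor, and a red fluorescent reporter on 1 of the Bach2 alleles. CD4 T cells were enriched and Foxp3-GFP positive cells were sorted by flow cytometry into a Bach2-RFP LO and a Bach2-RFP HI population, and both populations carried every one of these alleles. Each population had 4 libraries made from total RNA with SmartSeq2, labelled female (F1 and F2) and male (M1 and M2). Whether each library stems from an animal of its own is not stated in the labels, so the p-values speak of the spread among these 8 libraries, which may be technical.

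Actin filaments carry the cortex and the protrusions of a crawling lymphocyte and are crosslinked, capped and pulled by the proteins that bind them. Intermediate filaments (vimentin in the cytoplasm, lamins under the nuclear envelope) give the cell and its nucleus mechanical strength. Microtubules are built from alpha and beta tubulin, each encoded by several genes, and carry transport and the mitotic spindle. The product of Bach2 is a leucine zipper repressor of transcription, known in T cells for restraining effector differentiation.

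Of the 36811 models, 11260 had an FPKM (fragment counts scaled to transcript length and library size) of at least 1 in at least 4 libraries and were tested. Relative depth, read from the steps between low values with HI F1 taken as 1, was 0.818 to 5.27 in LO and 0.636 to 1.27 in HI libraries. The deepest, LO M2, also stood apart in short transcripts: over 237 protein-coding genes with transcripts under 750 bases, its median log2 value was 0.725 below that of the other 3 LO libraries. Bach2 stood at 0.691 ± 0.187 FPKM in LO and 15.6 ± 5.56 FPKM in HI cells, and Foxp3 at 14.7 ± 3.97 FPKM in LO and 14.2 ± 0.783 FPKM in HI cells (SD, n = 4 each; limma, adjusted p = 5.70e-04 for Bach2 and 0.985 for Foxp3). The cells were sorted on the Bach2 reporter, so the Bach2 difference is given as a check of the sort, not as a result. Bach2 reached an FPKM of 1 in HI libraries alone. The summed FPKM of 5 T and Treg cell markers was 919 to 1337 in LO and 663 to 1095 in HI libraries. Markers of other cells were not absent: 5 B cell markers summed to 68.7 to 103 in LO and 138 to 226 in HI libraries, 4 plasmacytoid dendritic cell markers to 28.9 to 68.1 in LO and 116 to 173 in HI, and 6 myeloid markers to 48.6 to 172 in LO and 92.4 to 211 in HI. Plasma cell markers did not move together: Jchain had 47.7 to 160.3 FPKM in LO and 3.0 to 17.1 FPKM in HI libraries, Mzb1 1.93 to 8.29 FPKM in LO and 4.14 to 13.3 FPKM in HI, Sdc1 0.493 to 7.82 FPKM in LO and at most 2.67 FPKM in HI, and Tnfrsf17 was listed at 0 in every library but LO M2 (1.11 FPKM); the 4 summed to 52.2 to 169 in LO and 14.9 to 28.2 in HI. Platelet markers summed to at most 4.78 in LO and 4.48 in HI libraries. Erythroid markers summed to 11.2 to 313 in LO and 23.9 to 172 in HI libraries. For stromal and endothelial markers, mostly Pecam1, the sums were 21.2 to 65.35 in LO and 74.7 to 106 in HI. CD8 T cell markers, mostly Cd8b1, summed to 24.2 to 33.55 in LO and 36.8 to 46.5 in HI, and NK cell markers to 0.602 to 2.82 in LO and 4.71 to 8.73 in HI. All 8 markers of cycling cells were higher in LO (limma, adjusted p below 0.05), with sums of 289 to 505 in LO and 34.5 to 54.5 in HI libraries. Of these, Mki67, Ccnb1 and Ccnb2 reached an FPKM of 1 in fewer than 4 HI libraries. These genes were tested only through their LO libraries, so their calls are given as a description. In such bulk samples, fewer cells of a type and less RNA per cell cannot be told apart.

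The promoters of the members were read from RefSeq windows of the build GRCm38.p6, which is not the build of the authors' notes, so they are shown for sequence and not joined to any coordinate of the table. All 10 members matched, with 11 windows of 32851 (Lmna has a pair). A window runs from 250 bases before to 50 bases after the annotated start. The upstream 250 bases are shown for the members with the highest and the lowest LO minus HI difference (Myo1f and Cnn3) and for a filament gene of each direction (Vim and Tubb2a). Capitals mark matches on either strand to TATAA, the TATA core, or to TGACGTCA, the cyclic AMP response element. The windows are Myo1f at chr17:33555457-33555706 (+ strand), Vim at chr2:13574061-13574310 (+ strand), Cnn3 at chr3:121426291-121426540 (+ strand) and Tubb2a at chr13:34078009-34078258 (- strand), each written 5′ to 3′ on its gene's strand.
Myo1f: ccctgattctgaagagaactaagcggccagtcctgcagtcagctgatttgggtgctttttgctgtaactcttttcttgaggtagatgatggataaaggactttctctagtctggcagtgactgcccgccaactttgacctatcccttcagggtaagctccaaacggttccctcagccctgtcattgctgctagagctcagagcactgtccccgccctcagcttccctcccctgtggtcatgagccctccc
Vim: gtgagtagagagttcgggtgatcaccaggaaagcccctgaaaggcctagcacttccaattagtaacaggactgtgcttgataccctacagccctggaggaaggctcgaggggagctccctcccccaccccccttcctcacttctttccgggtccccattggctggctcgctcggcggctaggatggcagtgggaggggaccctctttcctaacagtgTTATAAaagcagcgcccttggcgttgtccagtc
Cnn3: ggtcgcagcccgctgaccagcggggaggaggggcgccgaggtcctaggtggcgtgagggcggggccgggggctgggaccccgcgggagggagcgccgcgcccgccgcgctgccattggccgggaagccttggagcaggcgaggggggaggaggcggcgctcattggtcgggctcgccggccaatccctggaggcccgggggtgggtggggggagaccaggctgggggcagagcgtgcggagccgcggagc
Tubb2a: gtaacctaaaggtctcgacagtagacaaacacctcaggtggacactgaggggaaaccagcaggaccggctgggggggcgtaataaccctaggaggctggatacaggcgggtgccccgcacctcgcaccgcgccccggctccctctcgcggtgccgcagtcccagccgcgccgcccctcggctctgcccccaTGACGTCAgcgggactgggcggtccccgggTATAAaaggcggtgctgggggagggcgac

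Vim and Tubb2a thus both hold a TATA core shortly before the start, first base at -32 in Vim and at -29 in Tubb2a. In Vim the letters around it read as a match on both strands, and the overlapping match begins at -33. TATAA was found in 3 of the 10 members, the third being Tuba4a at position 12 past the start, and in 24.9% of all windows. The cyclic AMP response element stood in 1 member, Tubb2a, at -59, and in 1.79% of all windows. The AP-1 core TGANTCA, the kind of element that proteins of the Bach and AP-1 families are known to bind, was present in 1 member, Lmna, at position 40 past the start, and in 7.81% of all windows. That stretch, at chr3:88503303-88503332 on the - strand, is shown with the match in capitals.
Lmna: gcctctgcctggctgtcagTGACTCAgtgt

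The CArG box, the element of serum response factor known from many actin genes, was matched in 0 of the 10 members and in 1.63% of all windows. These letters say nothing of binding. The upstream 250 bases also differed in base composition: 78.8% of those of Cnn3 were G or C, against 53.6% of those of Myo1f, with 58.4% in Vim, 68.4% in Tubb2a and a median of 52.4% over the upstream bases of all windows. Of the 4 members lower in LO, the G and C share was 61.6% to 78.8%, and of the 6 higher ones it was 52.8% to 67.2%, ranges that overlap.

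Among the members, 6 had a higher mean log2 value in LO and 4 a lower one. The 4 LO libraries lay above all 4 HI libraries for 5 members (7.90% of all genes tested did so) and below them for 4 members (7.18% of all genes tested). Only Crip1 of the 10 had groups that overlap. Vim, Crip1, Capg and Tuba4a were well expressed in both populations, so for them LO and HI differed in level rather than in presence. Since the members were selected on these values, nothing is read from the counts. All 10 passed the low-value filter, Cnn3 and Tubb2a through their HI libraries alone, since 1 and 3 of their LO libraries reached an FPKM of 1.

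**Figure D1:**
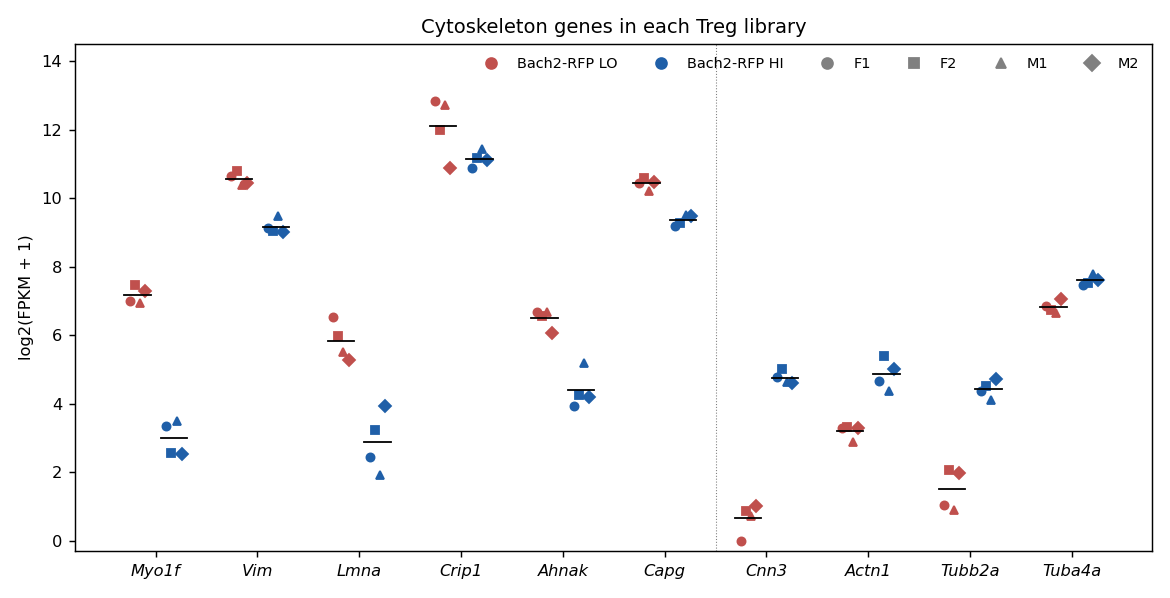
Level of the 10 genes in each library as log2(FPKM + 1), Bach2-RFP LO left of HI for each gene, with 1 symbol per library label and a black line at the group mean. The dotted line separates the 6 genes higher in LO from the 4 lower ones; the groups overlap for Crip1, where LO M2 lies at 1894 FPKM, within the HI range of 1879 to 2760 FPKM.

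Myo1f (ENSMUSG00000024300) encodes a class I myosin of leukocytes, a single-headed motor that links actin to membranes. Its level was 127, 177, 121 and 157 FPKM in LO F1, F2, M1 and M2, against 9.20, 4.90, 10.3 and 4.82 FPKM in HI F1, F2, M1 and M2. It was thus low but detected in every HI library, and its lowest LO value was 11.7 times its highest HI value. The means were 145 ± 26.0 FPKM in LO and 7.31 ± 2.87 FPKM in HI cells (SD, n = 4 each), a 19.9-fold ratio. On the log2(FPKM + 1) scale the difference was 4.19, the highest of the 10. Among the libraries numbered 1 it was 3.54, and among those numbered 2 it was 4.84.

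Myo1f made up 32.7 ± 1.95% of the summed FPKM of 8 class I myosin genes in LO cells and 4.46 ± 2.19% in HI cells. The sum itself was 443 ± 56.2 FPKM in LO and 171 ± 22.5 FPKM in HI cells. Of the other class I myosins, Myo1g, a myosin of blood cells, was higher in LO, with 182 ± 8.79 FPKM against 101 ± 10.6 FPKM in HI (limma, adjusted p = 0.00391). Myo1c and Myo1e averaged 29.9 ± 8.57 and 63.5 ± 19.6 FPKM in LO, against 15.3 ± 5.67 and 27.1 ± 24.6 FPKM in HI cells, and did not pass (limma, adjusted p = 0.103 and 0.120). Without HI M2, whose Myo1e value of 63.0 FPKM lay far above the other HI libraries (8.70 to 22.6 FPKM), Myo1e passed with an adjusted p of 0.0124. Myo1h was 20.9 ± 3.54 FPKM in LO and 19.7 ± 1.08 FPKM in HI (limma, adjusted p = 0.903), and Myo1a was listed at 0 in every library.

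Vim (ENSMUSG00000026728) encodes vimentin, the cytoplasmic intermediate filament protein of lymphocytes. It reached 1603, 1771, 1340 and 1388 FPKM in LO F1, F2, M1 and M2, against 554, 526, 706 and 516 FPKM in the HI libraries in the same order. Vim was abundant in both populations, and the lowest LO library was 1.90 times the highest HI library. Mean levels were 1525 ± 200 FPKM in LO and 575 ± 88.3 FPKM in HI cells (SD, n = 4 each), a 2.65-fold ratio and a log2 difference of 1.41. The other type III filament genes (Des, Gfap and Prph) were listed at 0 in all 8 libraries.

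Lmna (ENSMUSG00000028063) encodes lamins A and C of the nuclear lamina. It had 92.0, 61.4, 44.2 and 37.8 FPKM in LO F1, F2, M1 and M2, against 4.47, 8.41, 2.81 and 14.2 FPKM in HI F1, F2, M1 and M2. It was the most variable of the 10 within HI, with a coefficient of variation of 67.8%, although no LO value reached down to a HI value. The ratio of means was 7.88 (58.9 ± 24.3 FPKM in LO, 7.47 ± 5.06 FPKM in HI, SD, n = 4 each) and the log2 difference 2.93. It was 3.83 among libraries numbered 1 and 2.04 among those numbered 2.

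Within the lamins, Lmnb1 (lamin B1) was also higher in LO, with 72.6 ± 21.3 FPKM against 19.4 ± 7.40 FPKM in HI (limma, adjusted p = 0.00391). Lmnb2 stood at 7.22 ± 1.21 FPKM in LO and 8.67 ± 1.85 FPKM in HI cells (limma, adjusted p = 0.702). The share of Lmna in the lamin sum overlapped between groups, with 32.7% to 56.6% in LO and 6.88% to 33.0% in HI libraries. Lamin B1 is known to be abundant in dividing cells, and the markers of cycling cells given above were higher in the same libraries. Their part in the result was not tested.

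Crip1 (ENSMUSG00000006360), a small LIM domain protein that binds zinc, was the most abundant of the 10. It had 7379, 4096, 6703 and 1894 FPKM in LO F1, F2, M1 and M2, against 1879, 2307, 2760 and 2219 FPKM in HI F1, F2, M1 and M2. The other 3 LO libraries lay above every HI library, while LO M2 lay below 3 of the 4 HI libraries. The means were 5018 ± 2518 FPKM in LO and 2291 ± 363 FPKM in HI cells (SD, n = 4 each), a ratio of 2.19, with a log2 difference of 0.96. Without LO M2 the log2 difference was 1.37, among libraries numbered 1 it was 1.63 and among those numbered 2 it was 0.30. Crip1 is therefore described here as higher in 3 of 4 LO libraries, not as a gene that separates the groups.

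The annotated Crip1 transcript has 516 bases, the shortest among the members. In genes with transcripts under 750 bases the libraries differed within each group: the median difference from the other libraries of the group was 0.40 in LO F1, -0.05 in LO F2, 0.46 in LO M1 and -0.73 in LO M2, against 0.05 in HI F1, -0.10 in HI F2, 0.44 in HI M1 and -0.36 in HI M2. Crip1 was high in LO F1 and M1 and low in LO M2, as these medians were. Among the HI libraries, both Crip1 and the median were highest in M1. Crip1 was lowest in HI F1 (1879 FPKM), however, and not in HI M2 (2219 FPKM), which had the lowest median. The part of transcript length in the Crip1 values was not tested. Crip2 reached 15.2 ± 4.27 FPKM in LO and 6.86 ± 4.66 FPKM in HI cells (limma, adjusted p = 0.203), and Crip3 was listed at 0 throughout, so Crip1 made up over 99% of this family in both populations.

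**Figure D2:**
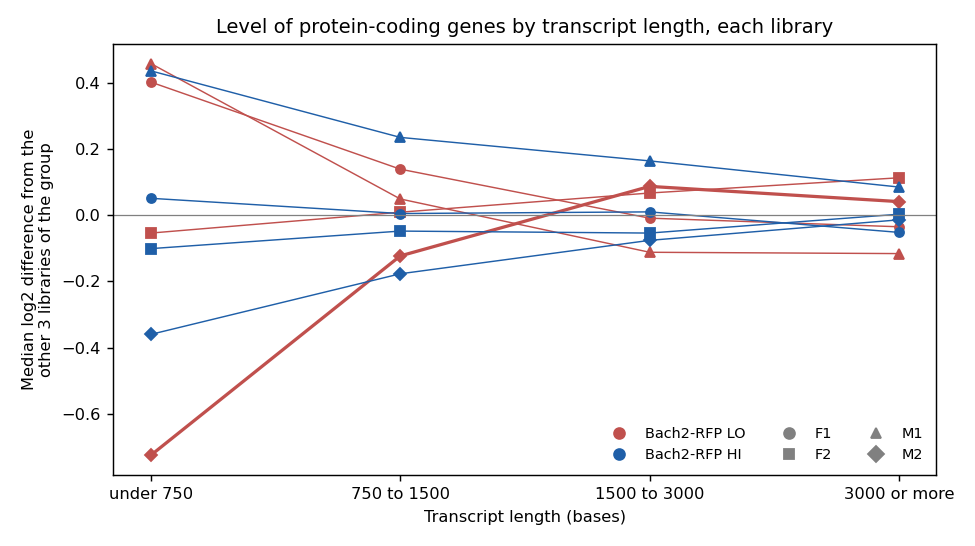
Median log2 difference of each library from the other 3 of its group (vertical axis) for protein-coding genes in 4 classes of annotated transcript length in bases (horizontal axis), with LO M2 drawn as the thick line. Libraries spread from -0.725 to 0.458 in the class that holds Crip1 and lie closer together for longer transcripts.

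Ahnak (ENSMUSG00000069833) encodes a giant scaffold protein that is held at the membrane by annexin A2 and S100A10. Its values were 101, 92.6, 101 and 65.3 FPKM in LO F1, F2, M1 and M2, against 14.3, 17.9, 35.1 and 17.4 FPKM in HI F1, F2, M1 and M2. LO M2 was the lowest of its group and HI M1 the highest of its own, and the groups stayed apart. The means of 90.0 ± 16.9 FPKM in LO and 21.2 ± 9.40 FPKM in HI (SD, n = 4 each) gave a 4.25-fold ratio and a log2 difference of 2.1. Both tested partners were higher in LO as well. The list that holds them was made with earlier results of these data known, so they are no independent support. Anxa2 averaged 402 ± 105 FPKM in LO against 60.8 ± 29.7 FPKM in HI cells (6.61-fold; limma, adjusted p = 5.92e-04). S100a10 had 4105 ± 931 FPKM in LO against 1035 ± 49.96 FPKM in HI cells (3.97-fold; limma, adjusted p = 2.77e-04). Ahnak2 was listed at 0 in all libraries.

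Capg (ENSMUSG00000056737) encodes the gelsolin family protein that caps the fast-growing ends of actin filaments without cutting them. It reached 1396, 1532, 1187 and 1424 FPKM in LO F1, F2, M1 and M2, against 582, 618, 726 and 705 FPKM in the HI libraries in the same order. Both groups were tight, with coefficients of variation of 10.4% in LO and 10.5% in HI. The ratio of means was 2.11 (1385 ± 144 FPKM in LO, 658 ± 68.7 FPKM in HI, SD, n = 4 each), and the log2 difference was 1.07. Capg was the main transcript of its family in both populations, at 85.7 ± 1.46% of the sum over 7 gelsolin family genes in LO and 73.9 ± 2.32% in HI cells. The 4 other family genes that were tested did not pass. Flii and Gsn averaged 148 ± 15.8 and 55.6 ± 13.0 FPKM in LO, against 139 ± 21.4 and 49.1 ± 11.7 FPKM in HI cells (limma, adjusted p = 0.776 and 0.749). Svil had 24.4 ± 9.85 FPKM in LO and 40.6 ± 12.3 FPKM in HI cells (adjusted p = 0.262). Scin was listed at 0 in LO F1 and had 1.19, 0.698 and 1.74 FPKM in LO F2, M1 and M2, against 2.80, 2.19, 6.58 and 3.65 FPKM in HI F1, F2, M1 and M2 (adjusted p = 0.0959). Avil and Vil1 were too low to be tested.

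Cnn3 (ENSMUSG00000053931) encodes calponin 3, an actin-binding protein. It was listed at 0 in LO F1 and had 0.809, 0.662 and 1.01 FPKM in LO F2, M1 and M2, against 26.5, 31.2, 23.9 and 23.5 FPKM in HI F1, F2, M1 and M2. The HI libraries were tight and the lowest of them was 23.4 times the highest LO library. Each value was also multiplied by its library's relative depth and divided by the gene's smallest such value above 0. That smallest value is 1 step by construction, so steps are relative amounts and need not be fragment counts. Cnn3 amounted to 0, 1, 1 and 8 steps in the LO libraries and 40, 60, 23 and 29 steps in the HI libraries. Of the 10 LO steps, 8 came from the deep library LO M2. The log2(FPKM + 1) difference was -4.11, the lowest of the 10. Of the summed FPKM of 3 calponin genes, Cnn3 gave at most 0.0759% in any LO library and 1.64% to 2.35% in HI libraries. Nearly all of that sum was Cnn2, at 1149 ± 132 FPKM in LO and 1266 ± 128 FPKM in HI cells (limma, adjusted p = 0.610).

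Actn1 (ENSMUSG00000015143) encodes alpha-actinin 1, which crosslinks actin filaments. It had 8.85, 8.88, 6.30 and 8.73 FPKM in LO F1, F2, M1 and M2, against 24.5, 40.7, 19.6 and 31.2 FPKM in HI F1, F2, M1 and M2. The LO libraries other than M1 nearly coincided, while the HI libraries spanned a 2.07-fold range. The mean was 8.19 ± 1.26 FPKM in LO against 29.02 ± 9.12 FPKM in HI (SD, n = 4 each), so the HI level was 3.55 times the LO level and the log2 difference was -1.67. Actn4 was the main alpha-actinin in both populations, with 306 ± 80.8 FPKM in LO and 281 ± 47.8 FPKM in HI cells (limma, adjusted p = 0.850). The share of Actn1 in the sum over 4 alpha-actinin genes was accordingly small, 2.64 ± 0.392% in LO and 9.23 ± 1.87% in HI.

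Tubb2a (ENSMUSG00000058672) encodes a beta tubulin, class IIa. Its level was 1.05, 3.16, 0.863 and 2.95 FPKM in LO F1, F2, M1 and M2, against 19.8, 21.7, 16.3 and 25.3 FPKM in HI F1, F2, M1 and M2. The libraries numbered 2 were the higher ones in both populations. The means were 2.01 ± 1.22 FPKM in LO and 20.8 ± 3.77 FPKM in HI cells (SD, n = 4 each), which put HI 10.4 times above LO, with a log2 difference of -2.94. In steps of its own smallest depth-scaled value, Tubb2a amounted to 1, 3, 1 and 18 in LO libraries, against 23, 32, 12 and 24 in HI libraries. Beta tubulin mRNA was mostly Tubb5 in both populations, with 279 ± 45.0 FPKM in LO and 332 ± 8.36 FPKM in HI (limma, adjusted p = 0.319). Tubb2a gave 0.572 ± 0.370% of the sum over 8 beta tubulin genes in LO and 4.85 ± 0.910% in HI cells.

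Tuba4a (ENSMUSG00000026202), an alpha tubulin, was the main one in both populations. It had 115, 105, 99.2 and 131 FPKM in LO F1, F2, M1 and M2, against 175, 184, 221 and 193 FPKM in HI F1, F2, M1 and M2. Its groups lay closest together among the 9 members without overlap: the lowest HI library was 1.34 times the highest LO library. The means of 112 ± 13.9 FPKM in LO and 193 ± 19.7 FPKM in HI (SD, n = 4 each) differed 1.72-fold, with a log2 difference of -0.78. Tuba4a made up 43.6 ± 3.67% of the sum over 5 alpha tubulin genes in LO and 61.6 ± 0.817% in HI cells. Tuba1a, Tuba1b and Tuba1c did not pass (limma, adjusted p = 0.940, 0.558 and 0.0683). Of these Tuba1c came nearest, at 38.4 ± 9.59 FPKM in LO and 21.0 ± 2.67 FPKM in HI, and passed with quantile normalization (adjusted p = 0.0450), with upper quartile scaling (0.0404) and without LO M1 (0.0232).

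**Figure D3:**
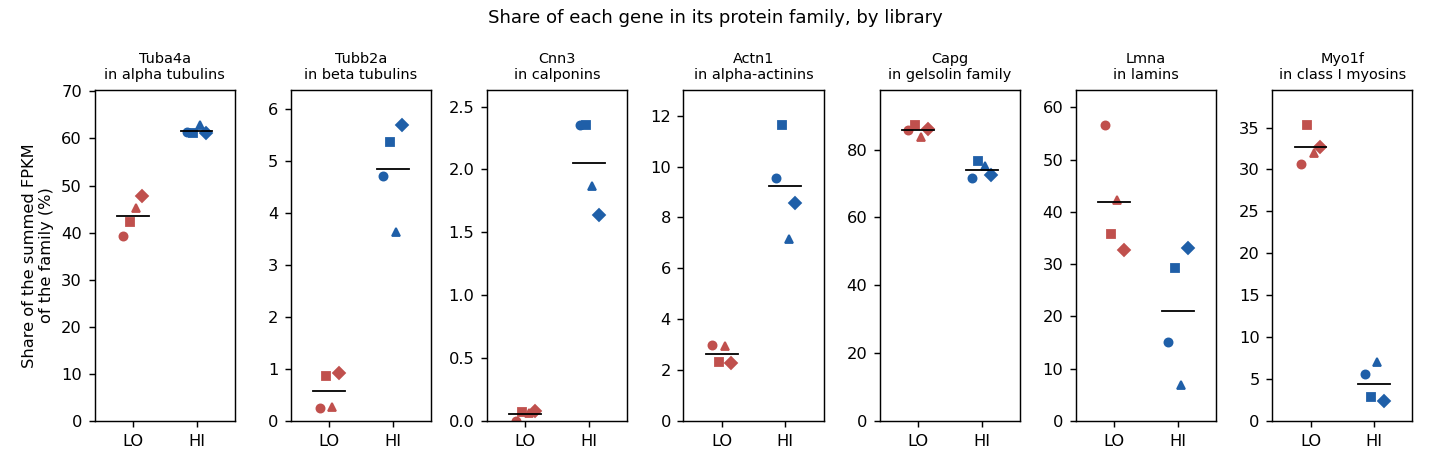
Share of each of 7 members in the summed FPKM of its protein family (percent, vertical axes starting at 0), LO left of HI, with 1 symbol per library (circle F1, square F2, triangle M1, diamond M2) and a line at the mean. Lmna is the gene whose shares overlap; Capg and Tuba4a are main transcripts of their families, while Cnn3, Actn1 and Tubb2a are minor ones in both populations.

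For some members reads may be shared with other genes. Of the runs of 50 bases in the longest coding transcript, 49.6% of those of Tubb2a also occur in other genes (Tubb2b and a Tubb2a pseudogene most of all). For Tuba4a it was 48.8%, mainly with the overlapping gene Stk16, which was chosen after its values were seen and stood at 70.4 ± 13.6 FPKM in LO and 72.1 ± 14.6 FPKM in HI (limma, adjusted p = 0.953). For Cnn3 it was 30.3%, mainly with predicted genes, and for Actn1 10.2%, mainly with predicted genes and Actn4, so the levels of these 4 genes are uncertain to that extent. The other 6 members shared none. All 4 members with shared runs were lower in LO. The HI libraries, where they were higher, also held more B cell and plasmacytoid dendritic cell transcripts, as given above. Of the 4 markers of the latter cells, Pacsin1 had 24.2 to 61.8 FPKM in LO and 88.0 to 99.8 FPKM in HI libraries, and Ccr9 2.20 to 4.70 FPKM in LO and 10.4 to 20.1 FPKM in HI. Siglech had at most 1.40 FPKM in LO and 7.14 to 44.6 FPKM in HI libraries, and Cox6a2 at most 2.48 FPKM in LO and 6.16 to 20.9 FPKM in HI. The part of other cell types in the members' values was not tested.

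The sex of the libraries played no part in the choice of the members, so it could be tested. None of the 10 passed between female and male libraries (limma with reporter level in the model; 5 genes passed over all genes tested, 0.0444%), and 0 of the 10 had an unadjusted p below 0.05, as 441 genes did. The 5 were Xist, Tsix and the Y-linked Kdm5d, Ddx3y and Eif2s3y, named after their values were seen. The female minus male differences of the members ran from -0.17 (Ahnak) to 0.39 (Lmna) on the log2 scale, with standard errors of 0.143 to 0.452. Actn1 had the smallest p, 0.326 (adjusted 0.998), with means of 20.7 FPKM in female and 16.5 FPKM in male libraries. A p above the threshold does not show that female and male levels were equal. This fit treats the 8 libraries as unpaired. If LO and HI libraries of the same label share an animal, which is not stated, these standard errors may be too small. With the label as a replicate block, 0 of the 10 members were called for sex, and 2 genes over all genes tested.

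The difference between LO and HI had the same sign in female and in male libraries for all 10 members, a sign fixed in part by the choice of genes that do not overlap. The size could be compared. No member passed for the interaction of sex and reporter level (limma, smallest adjusted p = 0.999; 2 genes passed over all genes tested, 0.0178%), and 0 of the 10 had an unadjusted p below 0.05, as 431 genes did. Ahnak had the smallest p, 0.160, with a LO minus HI difference of 2.53 in females and 1.67 in males. Crip1 differed by 1.40 in females and 0.53 in males, and Cnn3 by -4.47 in females and -3.76 in males. The male value of Crip1 includes LO M2, its lowest LO library (1894 FPKM). Cnn3 amounted to 0, 1, 1 and 8 steps of its smallest depth-scaled value in LO F1, F2, M1 and M2. The difference of differences ran from -0.71 to 0.95 with standard errors of 0.276 to 0.899, from 2 libraries of each sex in each population.

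**Figure D4:**
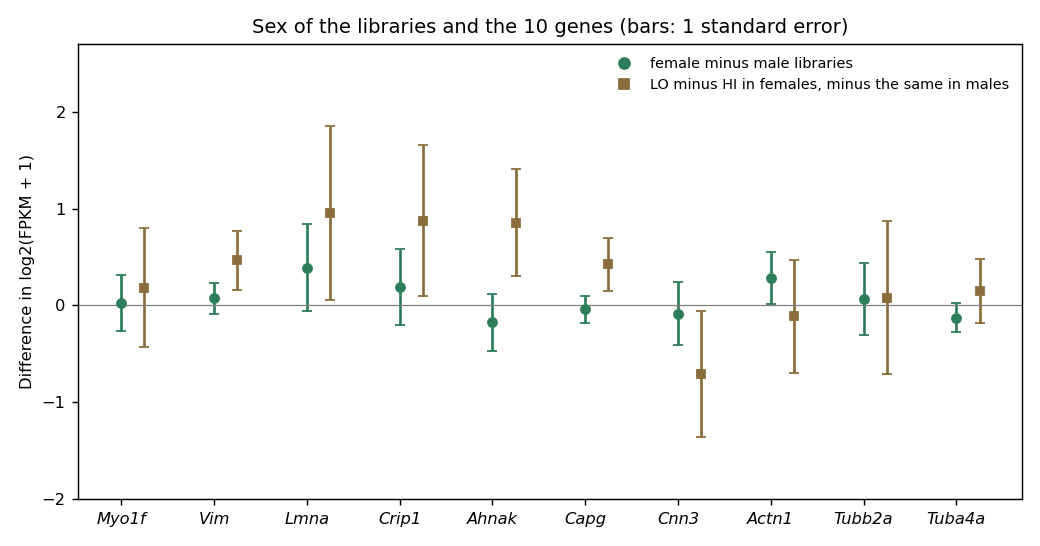
Female minus male difference of each member (circles) and difference between females and males in the LO minus HI difference (squares), both in log2(FPKM + 1), with bars of 1 standard error. The female minus male values stay between -0.173 and 0.389, and the differences of differences between -0.709 and 0.949.

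The library number divided the libraries within a population without overlap for 6 of the 10 members in LO (40.8% of all genes tested) and for 5 of the 10 in HI (37.3% of all genes tested), and nothing is read from these counts over 10 genes. In LO, the libraries numbered 2 were the higher ones for Myo1f, Capg, Cnn3 and Tubb2a, and those numbered 1 for Crip1 and Ahnak. In HI, number 2 was higher for Lmna, Actn1 and Tubb2a, and number 1 for Myo1f and Vim. The labels do not say what the number stands for. Every member kept its direction within number 1 and within number 2. Apart from Crip1, the members had groups without overlap, so for them this direction was fixed in advance.

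By a rule based on likeness of pattern, the genes nearest to Myo1f over the 8 libraries were Tigit and Cxcr3, an inhibitory receptor and a chemokine receptor. Their centred log2 values lay on average 0.369 and 0.382 from those of Myo1f. Tigit ran from 456 to 579 FPKM in LO and from 27.1 to 55.5 FPKM in HI libraries, and Cxcr3 from 336 to 565 FPKM in LO and from 27.0 to 43.8 FPKM in HI. Nearest to Cnn3 were Ccr7, the receptor for homing to lymph nodes, and Bach2 itself, at mean distances of 0.351 and 0.453. Ccr7 ran from 48.4 to 79.3 FPKM in LO and from 622 to 708 FPKM in HI libraries. The centred values hold the LO minus HI difference on which both members were chosen. The rule therefore mostly returns genes with a difference of like size, and Bach2 is the locus of the sort. Nothing beyond that likeness is read from these genes.

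Of 136 other cytoskeleton genes in 9 lists, 135 were in the table and 111 were tested: 9 were higher in LO (8.11%, against 4.65% of all genes tested), 2 were lower (1.8%, against 3.64% of all genes tested) and 100 did not pass (limma, adjusted over all genes). Over all genes tested, 8.29% were called in either direction, a share near that of these lists, so nothing particular to the cytoskeleton is read from the counts. The median log2 difference of the 111 was 0.18, against -0.03 over all genes tested. The members had been taken out of these lists, so the counts describe what is left. The 9 higher genes include the Ahnak partners Anxa2 and S100a10, and Pls3, which passed the low-value filter through its LO libraries alone. The 2 lower genes include Pdlim4, which passed it through its HI libraries alone. Of 15 genes of actin and its nucleation, 0 passed, and Actb, the cytoplasmic beta actin, stood at 16715 ± 826 FPKM in LO and 16376 ± 2528 FPKM in HI cells (adjusted p = 0.913). Among 10 other tubulins and 16 genes of actin severing, capping and monomer binding, 0 passed either. The most abundant of the latter, the actin-sequestering Tmsb4x, had 16699 ± 2859 FPKM in LO and 19768 ± 1466 FPKM in HI (adjusted p = 0.413).

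Of 10 myosin genes 1 was higher, Myo1g, while the light chain Myl6 stood at 931 ± 168 FPKM in LO and 852 ± 61.6 FPKM in HI (limma, adjusted p = 0.738). Of 21 crosslinkers, bundlers and membrane linkers, 3 were higher. Lcp1, the leukocyte plastin that bundles actin, had 1248 ± 233 FPKM in LO and 837 ± 34.3 FPKM in HI (adjusted p = 0.0462), and Zyx (zyxin, of focal adhesions) 108 ± 5.5 FPKM in LO and 72.0 ± 7.20 FPKM in HI (adjusted p = 0.0310). Pls3, another plastin, had 1.03, 1.03, 2.83 and 3.84 FPKM in LO F1, F2, M1 and M2 and was listed at 0 in all HI libraries (adjusted p = 0.0386). Pls3 passed the low-value filter through its LO libraries alone, so its call is given as a description. These 3 calls were not stable: without LO M2, for example, the adjusted p was 0.0797 for Lcp1, 0.0565 for Zyx and 0.0996 for Pls3.

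Both calls in the lower direction were LIM domain proteins of the PDZ and LIM family, which tie actin structures to other proteins. Pdlim1 had 55.2 ± 7.13 FPKM in LO against 149 ± 10.7 FPKM in HI cells (limma, adjusted p = 5.80e-04). Pdlim4 had 1.92 and 0.692 FPKM in LO F1 and M2 and was listed at 0 in LO F2 and M1, against 17.3, 16.0, 45.1 and 8.56 FPKM in HI F1, F2, M1 and M2 (adjusted p = 0.00235). Pdlim4 passed the low-value filter through its HI libraries alone, so its call is given as a description. Pdlim1 and Pdlim4 were 2 of 12 LIM domain genes tested. Pdlim2, the most abundant, had 160 ± 34.4 FPKM in LO and 129 ± 20.4 FPKM in HI (adjusted p = 0.422).

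Of 10 genes of intermediate filaments and the nuclear lamina, Lmnb1 was the 1 that passed. Sun2, which links the lamina to the cytoskeleton, was the most abundant at 372 ± 59.4 FPKM in LO and 584 ± 229 FPKM in HI (limma, adjusted p = 0.256). Of 15 microtubule-associated and tubulin folding genes 2 were higher. Mapre2, a protein of growing microtubule ends, had 116 ± 15.5 FPKM in LO against 45.0 ± 8.68 FPKM in HI (adjusted p = 0.00198). Stmn1 (stathmin, which takes microtubules apart) had 135 ± 37.3 FPKM in LO against 50.8 ± 26.9 FPKM in HI (adjusted p = 0.0367), a call lost without HI F2 (0.0744) and without 4 other libraries in turn. Dynll1, the most abundant gene of this list, had 311 ± 43.0 FPKM in LO and 363 ± 84.9 FPKM in HI (adjusted p = 0.586). Stathmin is known as a gene of dividing cells, and cycling markers were higher in the same LO libraries; their part was not tested.

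**Figure D5:**
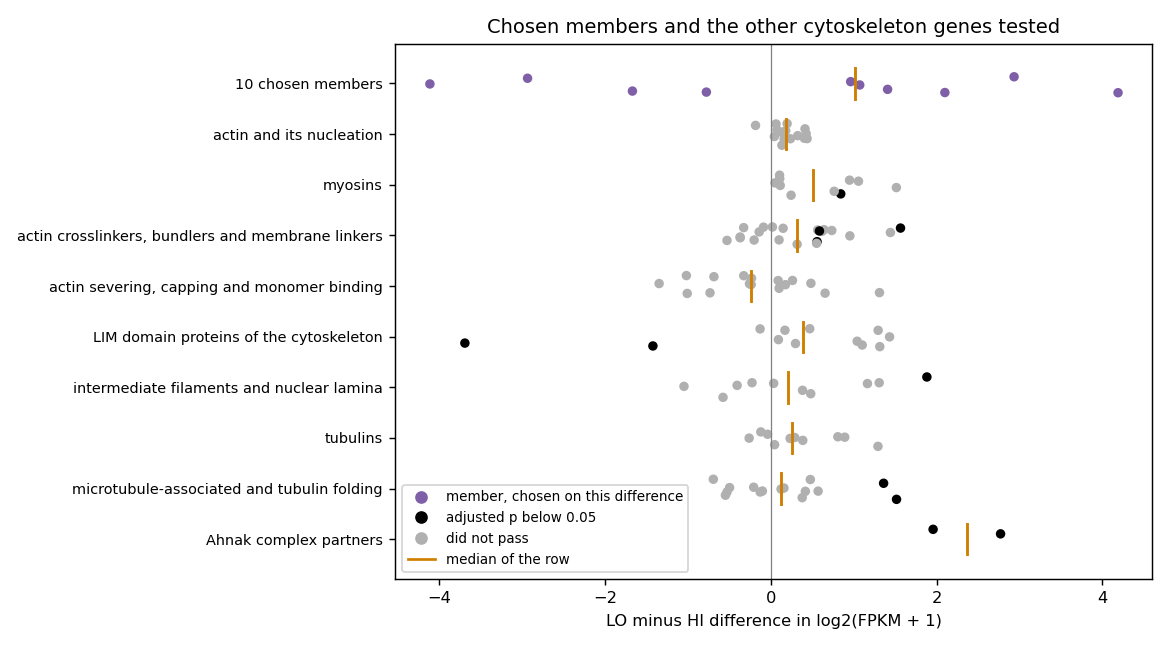
LO minus HI difference in log2(FPKM + 1) of the 10 members (top row) and of the 111 other cytoskeleton genes tested, by list; black points passed at an adjusted p below 0.05, grey points did not, and orange lines are row medians. The 2 black points left of 0 are Pdlim4 (-3.69) and Pdlim1 (-1.42).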

How the data were processed

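RNA was measured in 8 libraries of sorted spleen Treg cells, 4 Bach2-RFP LO and 4 HI, grouped by title. The deposited table holds FPKM values per gene model, which the authors took from Cuffnorm, per the file name. The submitters' processing notes name FastQC, cutadapt, HISAT2, NCBIM37 and mm9 and give no versions. The annotation, the scaling between libraries and whether strand was used in counting are not stated, so overlapping and antisense genes cannot be told apart. Every column of per-library values was used. The design text of the series concerns another experiment on single cells.

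Symbols were matched by Ensembl ID to GENCODE (31840 of 36811), which also gave transcript length. A gene was tested if at least 4 libraries reached an FPKM of 1. The test was limma 3.58.1 (R 4.3.3) on log2(FPKM + 1), with a variance trend in eBayes, and p-values were adjusted by Benjamini-Hochberg (threshold 0.05). Differences of low genes come out too small on this scale. Folds are ratios of mean FPKM. Python 3.11.15 was used for the rest. The fits were tested on simulated data. Read totals are unknown, and relative depth comes from ratios of values below 2 FPKM.

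The members and lists were chosen with earlier results of these data known. Named genes are the members, their families, the most abundant gene and up to 3 called genes of each list, the 2 genes most like Myo1f and Cnn3 in pattern, Bach2 and Foxp3. As alternatives, the pseudocount was set to 0.1, the filter was dropped or raised to an FPKM of 5, values were scaled by quantiles or upper quartile, sex entered as a covariate, the label entered as a block and each library was left out in turn. Chosen after seeing the data were the library number as a covariate, each number alone, and leaving out LO M2 with HI M1.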

Additional observations from a re-analysis of the deposited data

Results flagged for a closer look

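Among 36 groups of 4 values (levels and family shares of the members in each population), 2 held a library far from the others. Chance sets about 1 in 20 such groups apart. The Actn1 level in LO M1 was 6.30 FPKM, below the 8.73 to 8.88 FPKM of the other LO libraries, and the gap took up 0.941 of the group's range. The share of Tuba4a in alpha tubulins in HI M1 was 62.8%, above the 61.2% to 61.3% of the other HI libraries, with a gap of 0.898 of the range. HI M1 was also the shallowest library.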

How the results depend on the processing

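Each member kept the sign of its LO minus HI difference under every alternative run. Apart from Crip1, the members had groups without overlap, so leaving out libraries could not change their sign. Of 160 such values 7 moved by more than the spread between libraries: Myo1f and Lmna within number 1 and within number 2 libraries, Vim (1.72) and Capg (1.41) with quantile normalization, and Cnn3 (-5.64) with a pseudocount of 0.1. Of 574 values for other named genes, 36 lost and 5 gained a call. Myo1g, Lmnb1, Mapre2, Anxa2, S100a10, Pdlim1 and Pdlim4 stayed called in each of their fits (adjusted p at most 0.0216). Pdlim4 passed the low-value filter through its HI libraries alone, so its calls remain a description. Anxa2 and S100a10 were listed with earlier results of these data known, so they are no independent support. The LO minus HI difference in the share of Crip1 in its family was -0.0947 percentage points, but 0.0285 with quantile normalization. Other cytoskeleton genes higher in LO numbered 15 with quantile normalization, against 9, and 5 to 9 when 1 library was left out in turn (5 without HI F2). Female and male libraries differed in 5 genes, but in 1 with a pseudocount of 0.1, a filter of FPKM at least 5 or without LO M2 and HI M1, 3 without a filter, and 1 to 2 without 1 library in turn. The interaction had 2 genes, but 3 with a pseudocount of 0.1, 1 without a filter and 1 to 2 without 1 library in turn. No member was called for either under any of these. LO and HI libraries with the same label deviated together with correlations of 0.0522 (F1), 0.0149 (F2), 0.0699 (M1) and 0.113 (M2), all positive. Unlike labels ran from -0.0995 to 0.0583. F1, M1 and M2 in LO each correlated best with the same label in HI, while F2 in LO correlated best with M2 in HI. Whether the labels pair the libraries is thus not settled, and the main fits treat the libraries as unpaired. With the label as a replicate block, 771 genes were called between LO and HI, against 934, with 2 for sex and 0 for the interaction. Depth may limit Cnn3 and Tubb2a in LO, where most libraries had few steps of the gene's own smallest depth-scaled value.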
